A study of Rattus norvegicus with 39 samples.

Results

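The rows described here are the nuclear ribosomal RNA (rRNA) transcripts that Ensembl annotates in the rat, as counted in the small RNA of sperm. They are the rows of the deposited non-coding RNA (ncRNA) table whose class is rRNA, as opposed to Mt_rRNA (the mitochondrial rRNAs), and whose counts sum to at least 39 over the 39 libraries. Class rRNA covers 127 of the 1563 rows of that table, and 61 of them met the minimum, against 80942 rows in all 4 deposited tables. Another 26 rRNA rows had no count and 40 had between 1 and 38 counts. The totals nearest the minimum were 22 counts (2 rows) below it and 46 and 48 counts above it. Of the 61 transcripts 17 had the same counts as another member in every library and fall into 5 sets, so the 61 transcripts carry 49 distinct count patterns. The patterns are numbered 1 to 49 by their mean count per library, and each entered sums and tests once. The transcripts have different lengths, which were not used here, so this order is of counts and not of molecules. None of the 61 transcript identifiers matched a gene symbol (0 of 61), and which ribosomal subunit RNA each one stands for is not given in the files.

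Ribosomal RNA forms the core of the ribosome. In the nucleus it is transcribed from many repeated gene copies, some in long arrays whose precursor is cut into the RNAs of the large and small subunits, and one subunit RNA from separate clusters. Mitochondria encode their own rRNAs. Sperm shed most of their cytoplasm during maturation and carry out little cytoplasmic translation, and sperm small RNA is known for fragments of tRNA and rRNA. Mammalian genomes hold many near-identical annotated copies of rRNA genes, so a short read can match several entries.

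The study sequenced small RNA from cauda epididymal sperm of adult wild-type male Fischer rats aged 11 to 12 weeks, 1 male per library. Males were gavaged for 5 days with water (EGME0) or with EGME (ethylene glycol monomethyl ether, an industrial solvent known to be toxic to the testis) at 50 (EGME50), 60 (EGME60) or 75 (EGME75) mg/kg/d. All were then left for 5 weeks without exposure. There were 10, 10, 9 and 10 males, and the libraries ran on 13 sequencing chips of 3 libraries each.

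Counts behind these transcripts were few. The 4 tables together held between 244869 and 24308152 counts per library, of which the 2 Mt_rRNA rows took 11719 to 2691572. Outside the Mt_rRNA rows the ncRNA table held 421 to 46357 counts (median 7337), and the rRNA transcripts 2 to 3598 (median 429). Markers of other cells moved with dose as well, as shares of the miRNA table. The 5 epithelial miRNAs (miR-200 family) had a mean share of 0.861% at EGME0 and 2.92% at EGME75, with ranges of 0.625% to 1.29% and 1.81% to 4.77% and none of them at 0. The blood list was at 0.145% and 1.26%, ranging from 0% to 0.343% and from 0.248% to 4.82%, with 6 of 7 miRNAs in the table and miR-144-3p at 0 in both groups. The muscle list of 4 was at 1.77% and 4.43%, ranging from 0.954% to 3.27% and from 1.12% to 9.80%, with miR-1-3p at 0 at EGME75. The male germ cell list of 6 (miR-34b, miR-34c and miR-449) was at 26.3% and 13.9%, ranging from 19.8% to 33.1% and from 6.47% to 22.1%, with miR-449c-5p at 0 at EGME0. Their part in the results was not tested. In bulk samples such as these, more cells of a type and more RNA per cell cannot be told apart.

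The rRNA transcripts took a larger share of the ncRNA counts at higher doses. Outside the Mt_rRNA rows they held 2.49% ± 1.38 (SD, n = 10) of counts at EGME0, with a lowest library of 0.262%, a median of 2.48% and a highest of 5.21%. At EGME50 the share was 6.35% ± 3.09 (n = 10), from 1.77% through a median of 5.67% to 10.4%. Of the EGME50 libraries 9 of 10 lay above the control median and 5 above the highest control, so the groups overlapped. At EGME60 it was 9.46% ± 5.51 (n = 9), from 0.596% through 11.1% to 16.6%. At EGME75 it was 10.5% ± 2.75 (n = 10), from 4.49% through 11.0% to 13.9%, with 10 of 10 libraries above the control median and 9 above the highest control. These sums over chosen members were given no test. Patterns with nearly the same counts entered them, and the levels below, separately. A read counted at several such patterns would thus enter more than once.

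Against all counts the difference was larger. Per 1000000 counts of the 4 tables (CPM of the 4 tables) the rRNA transcripts were at 13.1 ± 6.27 (SD, n = 10) in controls, ranging from 2.80 to 25.2, and at 44.1 ± 24.4 (n = 10) at EGME50, ranging from 8.53 to 76.3. At EGME60 they were at 117 ± 75.7 (n = 9), from 13.5 to 262. At EGME75 they were at 141 ± 44.3 (n = 10), from 70.3 to 195, and every one of the 10 libraries lay above the highest control. On the same scale the mitochondrial rRNAs went the other way, from 118409 ± 48407 at EGME0 through 94867.8 and 67141 to 35888 ± 17650 at EGME75, where all 10 libraries lay below the lowest control. There were 12042 Mt_rRNA counts for each count of the nuclear transcripts on average over control libraries (median 8606, from 3641 to 29644). The highest of these was EGME0 replicate 33, which held 2 rRNA counts. At EGME75 the mean was 302.2 (median 251, from 59.5 to 943). Among the wider set of sequences of the RNAcentral table, entries described as rRNA, whose genome of origin was not separated, held 44.0%, 44.0%, 55.6% and 72.5% of that table's counts from EGME0 to EGME75.

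**Figure D1:**
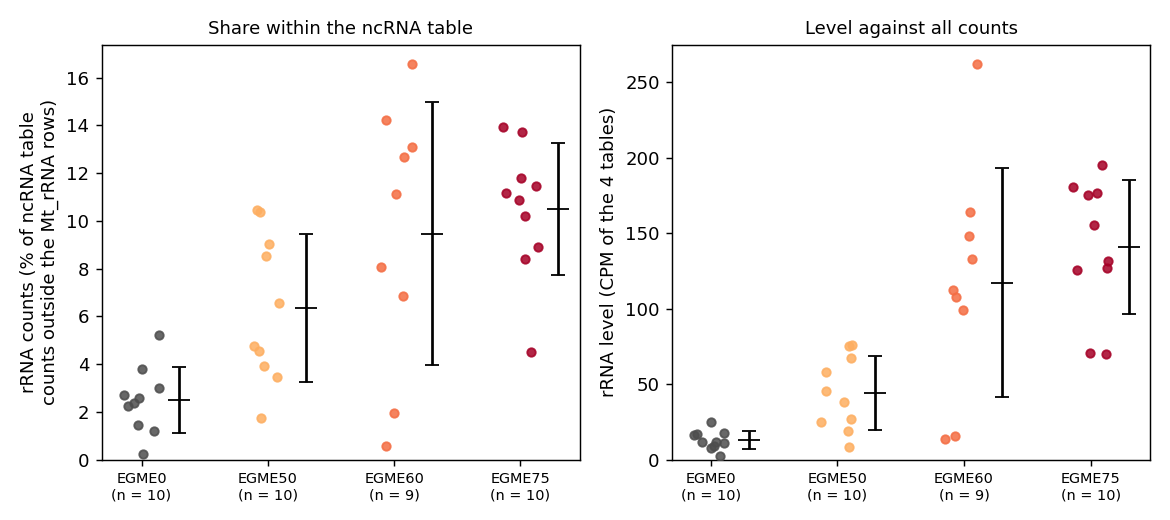
Summed counts of the rRNA transcripts in each library by dose group, as a percentage of ncRNA counts outside the Mt_rRNA rows (left) and in CPM of the 4 tables (right). Points are libraries and black bars the mean and SD; 2 EGME60 libraries lie at control level on both axes, and all 10 EGME75 libraries lie above the highest control on the right.

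Individual libraries stood apart. EGME60 replicates 6 and 13 had shares of 0.596% (161 of 27035 counts, 95% exact binomial interval 0.507% to 0.695%) and 1.95% (93 of 4761, 1.58% to 2.39%), while the other 7 libraries of that group had 6.87% to 16.6%. In CPM of the 4 tables these libraries had 15.6 and 13.5 against 99.0 to 262 in the other 7. Without them the EGME60 means were 11.8% ± 3.41 and 147 CPM ± 55.9 (SD, n = 7). The lowest control, replicate 33, held 2 rRNA counts of 762 (0.262%, 0.0318% to 0.945%), and the shallowest EGME75 library, replicate 24, 43 of 421 (10.2%, 7.49% to 13.5%). Such intervals cover counting error at most, since the labels name no molecular identifiers. They treat each count as a separate read, and are too narrow if a read was counted at several near-identical patterns. Some chips held a control and more than 1 library of a treated group, and the mean of those libraries was then used. Against the control of the chip, the share was higher on 6 of 6 chips for EGME50, 4 of 5 for EGME60 and 6 of 6 for EGME75. The level in CPM of the 4 tables was higher on 6 of 6, 5 of 5 and 6 of 6. On chip 1 the mean is that of EGME60 replicates 6 and 30. There replicate 6 alone lay below the control, EGME0 replicate 26, which had 1.47% and 25.2 CPM.

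Each pattern was then tested on its own, scaled to the counts outside the Mt_rRNA rows. A filter on low counts kept 85 distinct rows of the ncRNA table, 26 of them among the 49 rRNA patterns; the other 23 are described further on. With edgeR's quasi-likelihood test and Benjamini-Hochberg adjustment over the 85 rows, 11 rRNA patterns were higher at EGME50 than in controls and 0 lower, where 27.1% of all tested rows were called higher and 0% lower. At EGME60 26 were higher and 0 lower, against 50.6% and 0% of all rows. At EGME75 26 were again higher and 0 lower, against 54.1% called higher and 11.8% called lower of all rows. The rows called higher at EGME75 numbered 46, the 26 rRNA patterns among them. For the slope on dose 26 were higher and 0 lower, against 55.3% and 5.88%. A low count could pass the filter through the treated groups alone, so these calls describe the tested patterns only.

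The calls are fewer than they look as separate observations. Patterns whose counts differed by at most 0.1 on the Bray-Curtis scale (the summed difference of 2 patterns over their summed counts) were joined, and the 26 tested patterns fell into 9 groups. A pattern joined a group when it lay that near to any 1 member, so other pairs could differ by more (up to 0.141 among patterns 17 to 19). Patterns 3 to 9 formed 1 group of 7 and patterns 20 to 26 another of 7. Patterns 10, 12 and 13, patterns 15 and 16 and patterns 17 to 19 formed 3 more, and patterns 1, 2, 11 and 14 each stood alone. Whether a read matching several annotated copies was counted at each of them is not given in the sources used here.

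The rRNA patterns were 26 of the 85 tested rows, and some of the other rows moved with them. The median of all 85 rows includes the rRNA patterns, and at each of the 3 doses it equalled the value of an rRNA pattern. At EGME75 the median log2 fold change of the 26 was 2.63, and that of all 85 rows 2.06. At EGME50 the medians were 1.10 and 0.99, a difference of 0.11, and at EGME60 2.06 and 1.76. The rRNA median thus lay 0.57 above that of all rows at EGME75. Over 8 ways of scaling or testing the same rows it lay between 0.36 and 0.63 above. Over all 14 alternatives, some of which tested other rows, it lay between 0.36 and 1.87 above. The EGME75 medians of the rRNA patterns and of all rows were 1.83 and -0.04 with identical rows kept apart. Without the filter they were 1.81 and 0. Other classes differed: 12 of 14 long intergenic (lincRNA) rows were called higher at EGME75 with a median of 3.66. Of 22 miscellaneous (misc_RNA) rows 2 were called higher and 7 lower with a median of -0.16, and of 12 small nuclear RNA rows 0 were called by edgeR (1 at an unadjusted p under 0.05) with a median of 0.38. Those 2 medians changed with the scaling: with the sum of the 4 tables as library size misc_RNA was at 0.38 (3 higher, 0 lower) and small nuclear RNA at 0.94 (5 higher, 0 lower), and with library totals alone they were at -0.61 (2 higher, 16 lower) and -0.12 (0 called, 0 at an unadjusted p under 0.05). Of all 85 rows 46 were called higher and 10 lower by the TMM fit, 53 and 1 with the sum of the 4 tables, and 45 and 19 with library totals, while the rRNA patterns were at 26 and 0 in each. The misc_RNA rows held 84.8% of counts outside the Mt_rRNA rows at EGME0 and 57.1% at EGME75, so shares of the other classes moved with them; in CPM of the 4 tables the misc_RNA rows were at 576 ± 397 and 764 ± 178 (SD, n = 10 each).

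**Figure D2:**
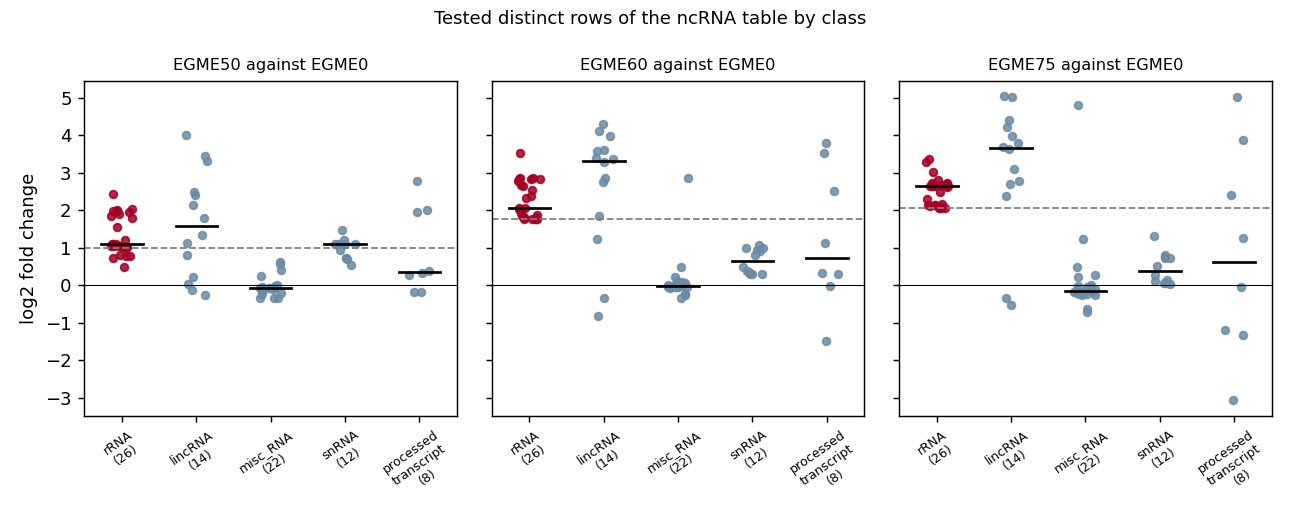
Log2 fold change against EGME0 of the tested distinct rows of the ncRNA table by class at each dose, with the number of rows under each class; 2 antisense rows and 1 miRNA row of the 85 are not drawn. Black lines are class medians and the dashed line the median of all tested rows, rRNA patterns included. At EGME75 the 26 rRNA patterns (red) lie between 2.05 and 3.35. They lie under the lincRNA median of 3.66 and above the misc_RNA median of -0.16, whose sign depends on the scaling.

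The size of these fold changes depended on the scaling. The factors (TMM) were computed against EGME0 replicate 33, with 762 counts, which edgeR chose as its reference. RLE factors and DESeq2, which take no single library as reference, gave EGME75 medians of 2.58 and 2.60, and library totals 2.10. With TMM against the deepest library, the same 26 patterns were called higher at EGME60 and at EGME75 and the same 11 at EGME50, with medians of 0.99, 1.69 and 2.10 at EGME50, EGME60 and EGME75. Of all rows 32.9%, 50.6% and 54.1% were called higher in that fit. Fewer calls were made at the lower doses in some fits: at EGME50 1 pattern was called without EGME0 replicate 9 or 26 (10 at an unadjusted p under 0.05 in each), and at EGME60 13 without EGME0 replicate 9. The share of all rows called was not worked out for fits with 1 library left out. The median of all rows also fell in some of them, to as low as 0.27 at EGME50 and 0.65 at EGME60. The limma-voom fit changed both the method and the block (chip was random in it). It called 0 at EGME50 (0 at an unadjusted p under 0.05) and 5 at EGME60, against 0% and 9.41% of all rows called higher. With chip as a fixed block edgeR called 9 and 26, against 24.7% and 49.4% of all rows. Levels in scaled CPM below (counts outside the Mt_rRNA rows, per 1000000 after scaling) use the first scaling and carry the same limit.

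Pattern 1 had the largest mean count and stands for 7 transcripts with the same counts, the first of them ENSRNOT00000077643.1. Its counts per library ran from 0 to 21 in controls (median 9.5), from 5 to 35 at EGME50 (23.5), from 11 to 411 at EGME60 (69) and from 4 to 369 at EGME75 (116). In scaled CPM the control libraries lay between 0 and 2206 (median 1496), EGME50 between 879 and 4992 (3885), EGME60 between 327 and 15384 (7948) and EGME75 between 2689 and 30259 (13623). All 10 EGME75 libraries lay above the highest control, while the 2 EGME60 libraries that stood apart lay among the controls. The log2 fold changes were 1.21 ± 0.44 (SE, edgeR adjusted p = 0.0361), 2.38 ± 0.46 (8.73e-05) and 3.30 ± 0.46 (2.23e-07) at the 3 doses, and the slope was 3.19 per 75 mg/kg/d. Against the deepest library the EGME75 value was 2.81 (adjusted p = 9.61e-08).

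Pattern 2 is a single transcript, with a difference of 0.11 ± 0.41 (SE, log2) between EGME75 and EGME60. Its scaled CPM had medians of 1522 in controls (0 to 3199), 4257 at EGME50 (1817 to 9698), 11046 at EGME60 (861 to 16472) and 10385 at EGME75 (3586 to 17630). Again all 10 EGME75 libraries exceeded the highest control, as did 6 of 10 at EGME50 and 7 of 9 at EGME60. The log2 fold changes were 1.56, 2.54 and 2.66 with SE of 0.42 to 0.44.

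Patterns 3 to 9, near copies of each other, rose at the lowest dose. Pattern 3 had scaled CPM medians of 1130 in controls (0 to 2399), 3553 at EGME50 (528 to 8272), 8065 at EGME60 (178 to 13199) and 5833 at EGME75 (2241 to 12983), and 9 of 10 EGME75 libraries lay above the highest control. The 7 patterns were higher by 1.79 to 2.04 on the log2 scale at EGME50, and pattern 3 by 1.79, 2.64 and 2.48 at the 3 doses (edgeR adjusted p = 0.00876, 0.000111 and 0.00013). Patterns 4 to 9 had control medians of 726 to 888 scaled CPM and EGME75 medians of 4970 to 5683, with all 10 EGME75 libraries above the highest control in each.

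Pattern 11, ENSRNOT00000074819.1, had the largest log2 fold change among tested rRNA patterns at EGME50 and EGME60; at EGME75 its value and that of pattern 1 (3.35 and 3.30) differed by less than their SE, and without the filter pattern 1 was higher (2.51 against 2.50). Its counts were 0 to 6 per library in controls and 1 to 124 at EGME75. Scaled CPM medians were 265 in controls (0 to 1382), 1764 at EGME50 (293 to 6418), 5377 at EGME60 (29.7 to 10454) and 3399 at EGME75 (1569 to 10114). Every EGME75 library lay above every control. The log2 fold changes were 2.44 ± 0.63, 3.52 ± 0.64 and 3.35 ± 0.64 (SE; edgeR adjusted p = 0.00774, 4.65e-05 and 2.66e-05).

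Pattern 10 was not called at EGME50, where its log2 value was 0.79 ± 0.44 (SE, edgeR adjusted p = 0.193). At EGME60 it was higher by 2.07 and at EGME75 by 2.63, with scaled CPM medians of 713, 1294, 3518 and 4806 from EGME0 to EGME75. Its near copies, patterns 12 and 13, had 0.77 and 0.78 at EGME50 and 2.63 and 2.72 at EGME75. Pattern 15 had scaled CPM medians of 255 (0 to 743), 589 (0 to 998), 2104 (185 to 3330) and 3090 (1121 to 5740). Its log2 values were 0.72 (adjusted p = 0.317), 2.33 (0.000209) and 3.03 (5.17e-06) by edgeR, and all 10 EGME75 libraries exceeded the highest control against 3 of 10 at EGME50. Pattern 16, its near copy, had 0.49, 2.03 and 2.82.

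At EGME60 and EGME75 the lowest values belonged to patterns 17 to 26, none of which was called at EGME50. Pattern 20 had the smallest log2 fold change at EGME75, 2.05 ± 0.58 (SE, edgeR adjusted p = 0.00258), after 1.05 (0.193) at EGME50 and 1.76 (0.0112) at EGME60. Its counts were 0 to 5 in controls and 1 to 47 at EGME75, and its scaled CPM medians 453 (0 to 1333), 876 (117 to 1676), 1780 (0 to 3186) and 2016 (224 to 2809). Here 8 of 10 EGME75 libraries lay above the highest control. With library totals and no further factors its EGME60 call was lost (edgeR adjusted p = 0.0512). That fit called 18 of the 26 tested rRNA patterns higher at EGME60, against 38.8% of all rows called higher and 10.6% lower.

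**Figure D3:**
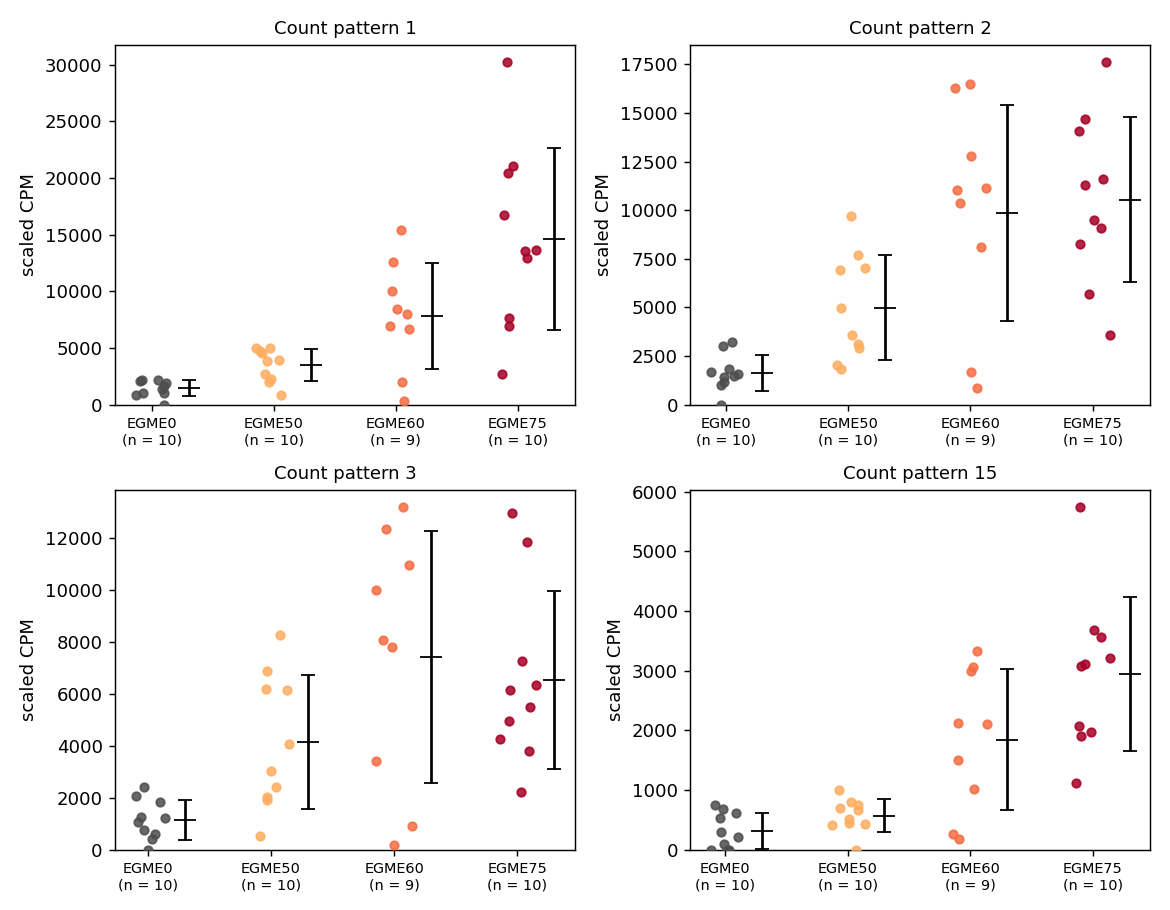
Scaled CPM of count patterns 1, 2, 3 and 15 in each library by dose group, with the mean and SD as black bars. Patterns 1 and 15 are highest at EGME75 (medians 13623 and 3090), while patterns 2 and 3 have higher medians at EGME60 (11046 and 8065) than at EGME75 (10385 and 5833).

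**Figure D4:**
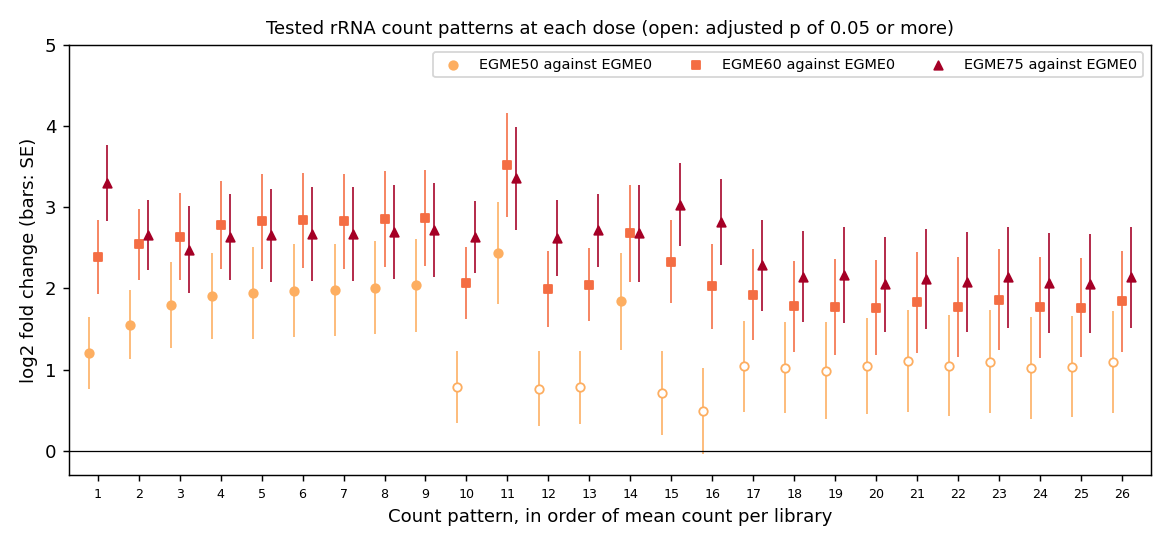
Log2 fold change against EGME0 with its SE for the 26 tested rRNA count patterns at 3 doses, with patterns in order of mean count; open symbols did not pass an adjusted p of 0.05. Filled EGME50 symbols are those of the 11 patterns called at that dose (1 to 9, 11 and 14), and all EGME60 and EGME75 symbols are filled.

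Steps between neighbouring doses were not resolved. No rRNA pattern was called between EGME60 and EGME50 by edgeR (0 of 26, with 7 at an unadjusted p under 0.05), where 0% of all tested rows were called. DESeq2 called 7 against 9.41% of all rows, the fit with RLE factors 4 against 4.71%, and limma-voom (chip as random block) 0 against 0% called higher. The smallest p belonged to pattern 15, at 1.62 ± 0.48 (SE, edgeR adjusted p = 0.101). Between EGME75 and EGME60 edgeR also called 0 of 26 (1 at an unadjusted p under 0.05) and DESeq2 0 (3 at an unadjusted p under 0.05), against 0% of all rows. The smallest p there was that of pattern 1, at 0.91 ± 0.43 (SE, adjusted p = 0.548), while patterns 3 and 11 had -0.16 and -0.17. Without EGME60 replicates 6 and 13, 16 of 27 tested patterns were called higher at EGME60 than at EGME50, against 27.1% of all rows in that fit. Those libraries had the lowest rRNA shares of EGME60 and were picked after the data were seen. More calls in this direction follow from that choice and are no separate support. With the sum of the 4 tables as library size and all libraries kept, 26 of 26 were called higher, against 50.6% of all rows. The medians were 1.30 for the rRNA patterns and 1.23 for all rows.

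No overlap with controls was seen at EGME75 for 11 of the 26 tested patterns, against 20% of all tested rows, and at EGME50 or EGME60 for 0 of 26 against 0%. The 11 were patterns 1, 2, 4 to 9, 11, 13 and 15, of which patterns 4 to 9 are near copies of each other. They are also among the 17 rows behind the 20%.

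The balance among patterns also varied between libraries. The ratio of pattern 1 to pattern 3 counts, which needs no scaling between libraries, had a median of 1.67 in controls (0.571 to 2.50, n = 9 libraries with pattern 3 counts), 1.06 at EGME50 (0.603 to 1.67), 1.02 at EGME60 (0.504 to 2.46) and 1.89 at EGME75 (1.05 to 4.92). At EGME75 3 libraries lay above the highest control and the groups otherwise overlapped. The ratio was not tested. Pattern 1 made up 6.79% ± 3.46 (SD, n = 10) of all rRNA counts in controls, 6.21% ± 1.43 at EGME50, 7.72% ± 3.06 at EGME60 and 11.3% ± 4.79 at EGME75. Near copies among the patterns entered those totals separately.

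**Figure D5:**
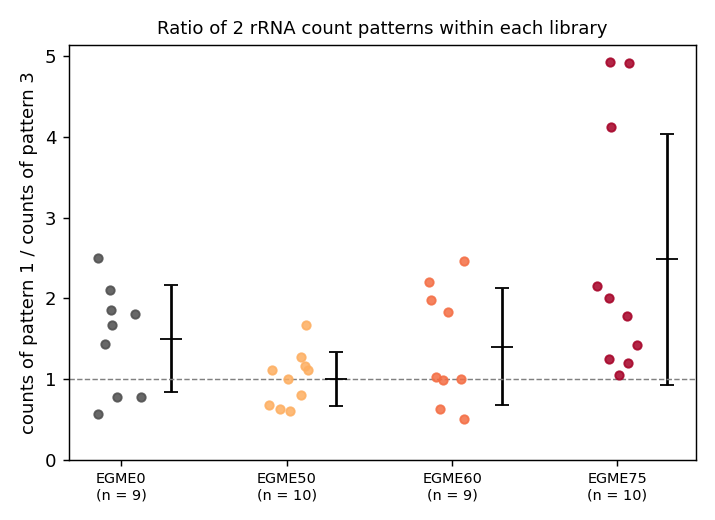
Counts of rRNA pattern 1 divided by counts of pattern 3 in each library by dose group, with the mean and SD as black bars and a dashed line at a ratio of 1. One control library without pattern 3 counts is left out; 3 EGME75 libraries lie above the highest control ratio of 2.50, and the other 7 overlap the controls.

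The 23 patterns that did not pass the filter had between 46 and 360 counts over all libraries. Without the filter, over 834 distinct rows, edgeR called 0 of all 49 patterns at EGME50 (10 at an unadjusted p under 0.05), 21 higher at EGME60, 35 higher at EGME75 and 39 higher for the slope, and 0 lower in each. Of all 834 rows 0.12%, 8.27%, 12.5% and 18.2% were called higher in these comparisons, and 0%, 4.56%, 11.3% and 10.2% lower. Between EGME60 and EGME50 it called 0 of the 49 (10 at an unadjusted p under 0.05) against 0.719% of all rows higher and 0.24% lower. At EGME75 44 of the 49 had a positive log2 fold change, and among the 23 the values ranged from -1.21 to 4.09, with 9 called. Patterns 45, 46 and 48 had 0 counts in all 10 control libraries. These 3 were near copies of each other. At EGME75 they had 25, 26 and 24 counts over 8 of 10 libraries each, which is at least 4.11-, 4.28- and 3.95-fold higher by library totals when controls are set at a floor of 3 counts over the group (6.21, 6.46 and 5.96 with the TMM factors). At EGME60 they had 27, 24 and 22 counts in 7 of 9 libraries each, at least 2.63-, 2.34- and 2.15-fold higher by library totals. At EGME50 they had 3, 3 and 2 counts, which do not exceed the floor.

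There were 5 low patterns with negative fitted values at EGME75, namely patterns 40, 41, 43, 47 and 49, and edgeR called none of the 5. They had 46 to 93 counts over all libraries. Pattern 49 had 11, 20, 4 and 11 counts over the groups from EGME0 to EGME75 and log2 values of -2.39 ± 0.91 (SE, edgeR p = 0.00969, adjusted p = 0.0671) at EGME60 and -1.21 ± 0.86 (adjusted p = 0.291) at EGME75. Pattern 43 had the same counts as a row of class miRNA, so its reads cannot be assigned to an rRNA. Patterns 40, 41 and 43 were near copies of each other. The number of patterns with at least 1 count was 32.1 ± 12.1 (SD, n = 10) per library at EGME0 and 44.3 ± 5.44 (n = 10) at EGME75, and it was 1 in EGME0 replicate 33.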

How the data were processed

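Small RNA libraries were made from 10 ng of sperm RNA with the Ion total RNA-seq kit v2, per the labels' protocols. The deposited tables hold raw read counts per row. FastQC, Bowtie and DESeq2 are named in the submitters' processing notes without roles, the build is Rnor_6.0 per the names of the tables, and the handling of multi-mapping reads is not given in the sources used here. Every column matched a sample label.

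The Mt_rRNA rows were left out, rows with identical counts were merged, and the remaining counts were fitted with edgeR 4.0.16 (quasi-likelihood, robust, TMM factors, filterByExpr by group, 39 libraries in 1 fit, two-sided, Benjamini-Hochberg over all 85 rows, threshold 0.05). The factors ranged from 0.509 to 1.32, and the tested rows held 93.2% of counts. Alternatives used DESeq2 1.42.0 and limma 3.58.1. Patterns named are the 10 with the largest mean count, those with the highest and lowest called log2 fold change at a mean count of 10 or more, or the smallest p where none was called, and the one with most identical copies. Members and lists, markers included, were chosen with earlier results of these data known. Libraries are separate males, and each p-value sets a group difference or slope against the spread between libraries. The main fit had no term for chip, so that spread includes differences between chips.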

Additional observations from a re-analysis of the deposited data

Results flagged for a closer look

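Of 64 groups of libraries checked for a library far from the rest of its group, 3 had one, and about 1 in 20 groups would by chance. EGME60 replicate 38 had rRNA transcripts at 1.65% of all ncRNA counts, Mt_rRNA rows included, with the next library of its group at 0.840%. In controls, pattern 11 was at 1382 scaled CPM in EGME0 replicate 1, with the next at 633. Pattern 20 was at 1333 scaled CPM in EGME0 replicate 2, with the next at 691.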

How the results depend on the processing

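No paired analysis was possible because each replicate number belongs to a single male in 1 dose group, so the groups share no numbers. The share of all tested rows called higher in the same fit follows each count of calls from the alternative fits below. At EGME50 the 11 calls became 19 with the sum of the 4 tables as library size (41.2%). They became 0 without the filter (0.12%, with 10 patterns at an unadjusted p under 0.05). With limma-voom and chip as a random block they became 0 (0%, with 0 patterns at an unadjusted p under 0.05). At EGME60 the 26 became 17 of 37 tested with the Mt_rRNA rows kept, 15 of them among the 26 (32.8% of all rows called higher). They became 16 at a mean of at least 10 counts (36.5%) and 18 with library totals and no further factors (38.8%). With limma-voom and chip as a random block 5 were called at EGME60 (9.41%) and 10 for the slope (30.6%). EdgeR with chip as a fixed block gave 9 at EGME50 (24.7%). It gave 26 at EGME60, EGME75 and for the slope (49.4%, 50.6% and 50.6%). Between EGME60 and EGME50 the 0 calls became 4 with RLE factors (4.71%) and 7 with DESeq2 (9.41%). They became 26 with the sum of the 4 tables (50.6%) and 26 with the tRNA total (75.3%). They became 1 without the shallowest library of each group (2.22%) and 16 without EGME60 replicates 6 and 13 (27.1%). The cause was not tested. Leaving out each library gave 1 to 11 calls at EGME50 (1 without EGME0 replicate 9 or 26), 13 to 26 at EGME60 (17 or fewer for 20 of 39 libraries), 18 to 27 at EGME75, 17 to 27 for the slope (17 without EGME0 replicate 26), 0 to 3 between EGME60 and EGME50 (3 and 2 without EGME60 replicates 6 and 13) and 0 to 0 between EGME75 and EGME60. For these fits the share of all rows called was not worked out, so fewer rRNA calls cannot be told from fewer calls over all rows. In 32 of the 39 such fits the TMM reference was another library, and the EGME75 median of the rRNA patterns was then 1.38 to 2.33, against 2.52 to 2.64 in the 7 that kept EGME0 replicate 33. Over the planned and added alternatives that median ran from 1.47 to 3.60. With identical rows each counted, the mean share at EGME75 was 14.8%, and the level 19.8 CPM of the 4 tables at EGME0 and 250.9 at EGME75. Of the alternative values of named patterns 793 kept their call, 8 gained and 63 lost one, and 0 changed sign; in steps between doses 7 and 10 of the 13 named changed sign at least once. Choosing the deepest library as reference and leaving out EGME60 replicates 6 and 13, which had the lowest rRNA shares of their group, were added after the data were seen.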
